A study of Mus musculus with 6 samples.

Results

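The wild-type (WT) cornea of the newborn mouse is described here from 3 arrays of whole corneas taken at postnatal day 3. They were all the WT arrays in a series of 6. The others came from littermates carrying K14-DN-Clim, a transgene in which the keratin 14 promoter drives a dominant-negative CLIM, and their levels are not reported. The labels name no strain. Nor do they tell if each replicate is from a single pup or from several, so part of the spread between replicates may be technical. Per the labels' protocols the corneas were dissected free of other tissue, the RNA was checked by quantitative PCR for markers of cornea and of adjacent tissues, and the cDNA was amplified before hybridisation to Affymetrix Mouse Gene 1.0 ST arrays. With 1 group there is no contrast to test. Levels are therefore given as log2(intensity + 16), with mean ± SD over the 3 arrays, and values in a row of 3 follow the order WT replicates 1, 2 and 3.

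The cornea is the clear front wall of the eye. Its surface is a stratified epithelium whose basal cells carry keratins 5 and 14 and whose differentiated cells carry keratin 12. Beneath it lies the stroma, where keratocytes of neural crest origin lay down thin, evenly spaced collagen fibrils coated with keratan sulfate proteoglycans. The inner face is a single layer of endothelial cells that rest on Descemet's membrane, rich in type VIII collagen, and that pump fluid out of the stroma. In newborn mice the lids are still closed and the epithelium is thin. In RNA from a whole cornea, fewer cells of a type and less RNA per cell cannot be told apart. Brightness also depends on the probes of a probe set, so the genes are ordered by brightness only and no ratio between genes is given.

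A total of 19938 genes were represented by 1 probe set each. To set a level below which signal has little meaning, the 1209 olfactory, vomeronasal and trace amine receptor genes were used, since such sensory receptors are not known as corneal genes. Their 95th percentile, the floor, lay at 8.57, 8.57 and 8.46 on the 3 arrays. Genes above the floor on all 3 WT arrays numbered 7200, or 36.1% of all genes, and 45 of the receptor genes themselves met that rule. The array medians of deposited intensity were 263.6, 271.2 and 260.5, and the arrays correlated with each other across genes at r = 0.974 (replicates 1 and 2), 0.964 (1 and 3) and 0.977 (2 and 3). Replicates 1 and 3 were the least alike. They differed by at least 2-fold in 316 genes, against 171 for replicates 1 and 2 and 118 for replicates 2 and 3. Replicate 3 was the highest for 19 of 24 retinal, 15 of 28 lens and 10 of 16 pigment genes, and replicate 1 for 20 of 25 epithelial junction genes, as described with each list. Such counts are to be read beside those of all 19938 genes, of which 6921, 7118 and 5899 were highest on replicates 1, 2 and 3. Xist, the RNA that coats the inactive X chromosome, was at 12.35, 12.60 and 12.43, and the Y-linked genes Kdm5d, Eif2s3y and Uty lay below the floor on every WT array, at 4.31 to 6.20.

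The promoters of 3 genes, each a marker of a different corneal layer, and of a pair of photoreceptor genes that differed between the arrays are printed from RefSeq (GRCm38.p6), 5′ to 3′ on the gene's strand, from 250 bases before to 50 after the gene's start. Krt12, the corneal keratin, lies on the minus strand (chr11:99422210-99422509). Kera, the stromal proteoglycan keratocan, lies on the plus strand (chr10:97606955-97607254). Col8a2, a chain of type VIII collagen, lies on the plus strand (chr4:126286544-126286843). Gngt1, the gamma subunit of rod transducin, lies on the plus strand (chr6:3993758-3994057), and Crx, a photoreceptor homeobox factor, on the minus strand (chr7:15879906-15880205). Capitals mark every match, on either strand, to 6 motifs: the TATA box TATAAA, the Sp1 box GGGCGG, the AP-1 site TGANTCA, the AP-2 site GCCNNNGGC, the core TAATCC bound by Crx and Otx2, and the E-box CACCTG bound by Zeb and Snai factors.
Krt12: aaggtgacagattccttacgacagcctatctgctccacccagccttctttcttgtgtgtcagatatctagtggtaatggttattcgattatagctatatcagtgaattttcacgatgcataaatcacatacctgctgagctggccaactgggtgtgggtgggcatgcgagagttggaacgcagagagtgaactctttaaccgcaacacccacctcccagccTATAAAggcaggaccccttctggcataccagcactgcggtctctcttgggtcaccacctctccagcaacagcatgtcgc
Kera: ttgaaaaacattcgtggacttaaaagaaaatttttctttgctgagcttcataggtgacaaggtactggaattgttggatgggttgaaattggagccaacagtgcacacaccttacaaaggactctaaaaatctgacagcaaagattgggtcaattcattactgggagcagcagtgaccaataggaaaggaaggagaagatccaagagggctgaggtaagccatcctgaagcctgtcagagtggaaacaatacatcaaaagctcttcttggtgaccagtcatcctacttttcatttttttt
Col8a2: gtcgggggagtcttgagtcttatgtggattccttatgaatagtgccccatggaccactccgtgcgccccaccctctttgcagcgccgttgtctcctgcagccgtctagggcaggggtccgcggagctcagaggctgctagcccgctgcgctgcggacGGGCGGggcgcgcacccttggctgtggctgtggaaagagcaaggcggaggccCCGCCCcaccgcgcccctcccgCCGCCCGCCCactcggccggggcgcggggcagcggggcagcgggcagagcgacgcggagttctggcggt
Gngt1: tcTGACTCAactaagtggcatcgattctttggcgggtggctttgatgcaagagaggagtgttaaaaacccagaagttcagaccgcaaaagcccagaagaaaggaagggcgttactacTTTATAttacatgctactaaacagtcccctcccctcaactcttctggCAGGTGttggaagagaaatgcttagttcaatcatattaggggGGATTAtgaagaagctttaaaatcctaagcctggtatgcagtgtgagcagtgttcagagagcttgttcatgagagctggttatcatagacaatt
Crx: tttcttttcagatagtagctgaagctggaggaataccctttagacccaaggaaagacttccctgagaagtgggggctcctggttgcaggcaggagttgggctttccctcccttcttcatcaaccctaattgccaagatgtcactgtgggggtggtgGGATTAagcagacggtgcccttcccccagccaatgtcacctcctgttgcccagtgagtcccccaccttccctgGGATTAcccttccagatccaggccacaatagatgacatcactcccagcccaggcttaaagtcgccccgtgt
The Krt12 promoter held a TATAAA at position -29 from the start, a motif found in 13.6% of the 32851 promoters of the table. The Kera window held none of the 6 motifs. The Col8a2 window held 4 copies of GGGCGG, in part overlapping, from -93 to -15, and 35.7% of all promoters held at least 1. In Gngt1 there was a TAATCC at -44, a CACCTG at -86, a TATAAA at -133 and a TGANTCA at -248, and in Crx there were 2 copies of TAATCC, at -94 and -21. The window of Rom1, a further photoreceptor gene that differed between the arrays, was also searched and is not printed. It held no TAATCC, but a GGGCGG at -61 and at -29 and a GCCNNNGGC at -222. Of all promoters, 7.06% held TAATCC, 20.2% CACCTG, 7.81% TGANTCA and 16.6% GCCNNNGGC. Of the 24 retinal genes described below, 19 matched the table and 5 of these held TAATCC. Of the same 19, 7 held TATAAA, 6 GGGCGG, 5 GCCNNNGGC, 5 CACCTG and 2 TGANTCA, so TAATCC was not the motif found most often. A gene counted here if any of its promoters held the motif, so these counts and the shares per promoter have different units. Of matched basal and corneal keratin genes 2 of 5 held TAATCC. It was in 0 of 18 collagen, 0 of 12 small leucine-rich proteoglycan and 0 of 11 epithelial junction genes matched. A match is a string of letters and not a shown binding site.

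Many of the brightest genes of the WT cornea were those of protein synthesis. Of the 25 brightest named genes, 13 encode ribosomal proteins, among them Rpl23 (13.47 ± 0.09, SD, n = 3), Rps29 (13.47 ± 0.05) and Rps12 (13.39 ± 0.10). Translation was also represented by Eef1a1, the elongation factor that brings aminoacyl-tRNA to the ribosome (13.33 ± 0.06). Tpt1, a translationally controlled protein (13.25 ± 0.11), and Gas5, a host RNA for small nucleolar RNAs (13.17 ± 0.14), were in the set too. Sparc, a collagen-binding matricellular glycoprotein (13.44 ± 0.09), and Dcn, the proteoglycan decorin (13.19 ± 0.12), brought the stromal matrix into the same set. Tmsb10, an actin-sequestering thymosin (13.48 ± 0.08), S100a6, a calcium-binding protein (13.28 ± 0.07), Calm2, a calmodulin gene (13.37 ± 0.10), and Lgals1, a galactoside-binding lectin (13.24 ± 0.04), were also among them. Rn7sk, the small nuclear RNA that holds the elongation factor P-TEFb inactive, was at 13.51 ± 0.05, and COX2, a mitochondrial subunit of cytochrome c oxidase, at 13.21 ± 0.30. The top place went to Baiap2l1, an actin-bundling adaptor, at 13.76 ± 0.11. Its other probe sets read 13.03 and 7.99, so its place is uncertain. Each of the 25 spanned less than 2-fold over the WT arrays.

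**Figure D1:**
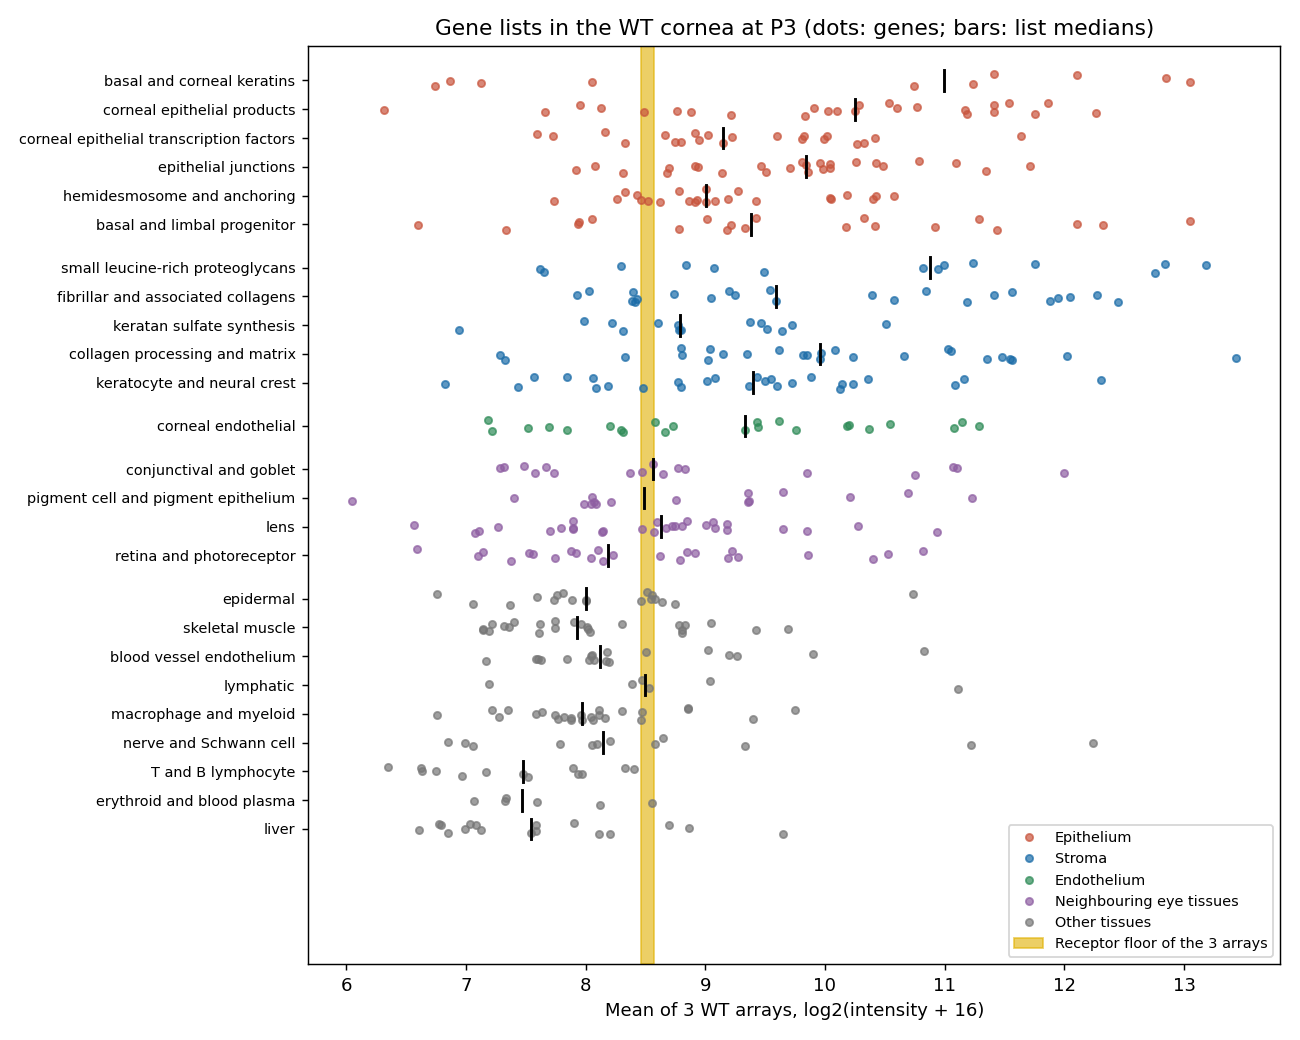
Mean log2(intensity + 16) of the 3 WT arrays for each gene (dots) in lists of corneal layers, neighbouring eye tissues and other tissues, with list medians (black bars) and the receptor floor of the arrays (yellow band, 8.46 to 8.57). Most dots of the epithelial and stromal lists lie right of the band, and all 13 T and B lymphocyte genes lie left of it.

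Epithelial genes were broadly present. Of 119 genes in 6 lists of epithelial genes, 85 (71.4%) were above the floor on all WT arrays, against 36.1% of all genes. Krt5, the basal type II keratin, was at 12.87, 12.81 and 12.88, and its partner Krt14 at 12.26, 12.08 and 11.99. Krt15, a keratin of basal and limbal cells, was at 13.21, 12.98 and 12.96. The arrays lay close together for all of them. Krt12, the keratin that marks corneal differentiation, was at 11.21, 11.55 and 11.47, well above the floor on each array and lowest on replicate 1. Of the 10 keratins listed, Krt6a (11.24 ± 0.09) and Krt6b (10.74 ± 0.15), keratins of suprabasal and activated epithelium, were above the floor too. Krt17, Krt24, Krt23 and Krt16 lay below it on every array. Krt16 read 7.64, 5.57 and 7.01, and such a range below the floor carries little information.

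Pax6, the homeobox factor required for eye formation and for corneal epithelial identity, was at 11.59, 11.60 and 11.72, the brightest of 21 listed epithelial transcription factors, of which 15 were above the floor. Trp63, the p53 relative needed for stratified epithelia, was at 10.70, 10.43 and 9.83, highest on replicate 1 and lowest on replicate 3. Klf3 (10.41 ± 0.35) and Klf5 (9.99 ± 0.12), zinc-finger factors, and Ehf, an epithelial Ets factor (10.27 ± 0.26), were also among the brightest. Elf3 (8.16 ± 0.32), Ovol1 (7.73 ± 0.28) and Ovol2 (7.59 ± 0.10), factors tied to epithelial differentiation, were the dimmest and lay below the floor throughout. Klf4, a factor of barrier differentiation, read 8.93, 8.73 and 8.33, above the floor on replicates 1 and 2 alone.

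Among 25 products of corneal epithelium 18 were above the floor. They included Upk1b, a uroplakin of surface cells (12.26 ± 0.06), Mal, a lipid-raft proteolipid (11.87 ± 0.08), Gsto1, a glutathione transferase (11.76 ± 0.07), and Anxa1, an annexin (11.54 ± 0.18). Aldh3a1, the aldehyde dehydrogenase that is a major soluble protein of adult mouse cornea, was at 10.04, 10.06 and 9.98, and Tkt, transketolase, another abundant corneal enzyme, at 10.47, 10.70 and 10.65. Both varied little between arrays. Muc16, a membrane mucin of the surface glycocalyx, was at 6.66, 6.08 and 6.21, Slurp1, a secreted Ly6 protein, at 7.22, 7.86 and 7.91, and Spink5, a protease inhibitor, at 7.97, 7.83 and 8.06. These were the dimmest of the list, below the floor throughout. Muc4, another membrane mucin, was brighter at 10.87, 10.06 and 9.83, with a range of 2-fold that set replicate 1 above the others. Cldn10, a tight junction claudin, ran the other way, with replicate 1 lowest at 9.48 and replicates 2 and 3 at 10.50 and 10.31.

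Junction genes made the epithelial list with the largest share above the floor, 21 of 25. Perp, a desmosomal membrane protein (11.71 ± 0.03), Dsp, desmoplakin (11.35 ± 0.32), Dsc2, desmocollin 2 (11.09 ± 0.23), and Cdh1, E-cadherin (10.26 ± 0.41), were among the brightest. Replicate 1 was highest for 20 of the 25. Epcam, an epithelial adhesion protein, was at 9.94, 9.67 and 8.92 and Dsg2, desmoglein 2, at 9.29, 8.55 and 8.24, and these were the list's 2 members that spanned at least 2-fold. In the basement membrane and hemidesmosome list 16 of 23 were above the floor, led by Col17a1, the transmembrane collagen of hemidesmosomes (10.71, 10.68 and 10.33), with Lamb1 and Lamc1, laminin chains (10.43 ± 0.11 and 10.18 ± 0.19), and Nid1, nidogen (10.40 ± 0.34). Col4a6 (7.74 ± 0.18), Lama5 (8.26 ± 0.17) and Frem2 (8.33 ± 0.16) were the dimmest.

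Of 20 genes linked to basal and limbal progenitor cells, 14 were above the floor. Ifitm3, an interferon-induced membrane protein, was at 12.32 ± 0.05. Gpha2, a glycoprotein hormone subunit known from limbal stem cells, was at 11.85, 11.20 and 11.27, highest on replicate 1. Igfbp5, an IGF-binding protein, had the same order of arrays with 10.84, 10.17 and 10.25, and so did Cav1, caveolin 1, with 11.23, 10.64 and 10.89. Wnt7a (6.60 ± 0.10), Cebpd (7.33 ± 0.13) and Itga9 (7.94 ± 0.30) were the dimmest members, all below the floor. Abcg2, a drug efflux transporter used to define side population cells, was at 8.78 ± 0.25, above the floor on replicates 1 and 3 alone.

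**Figure D2:**
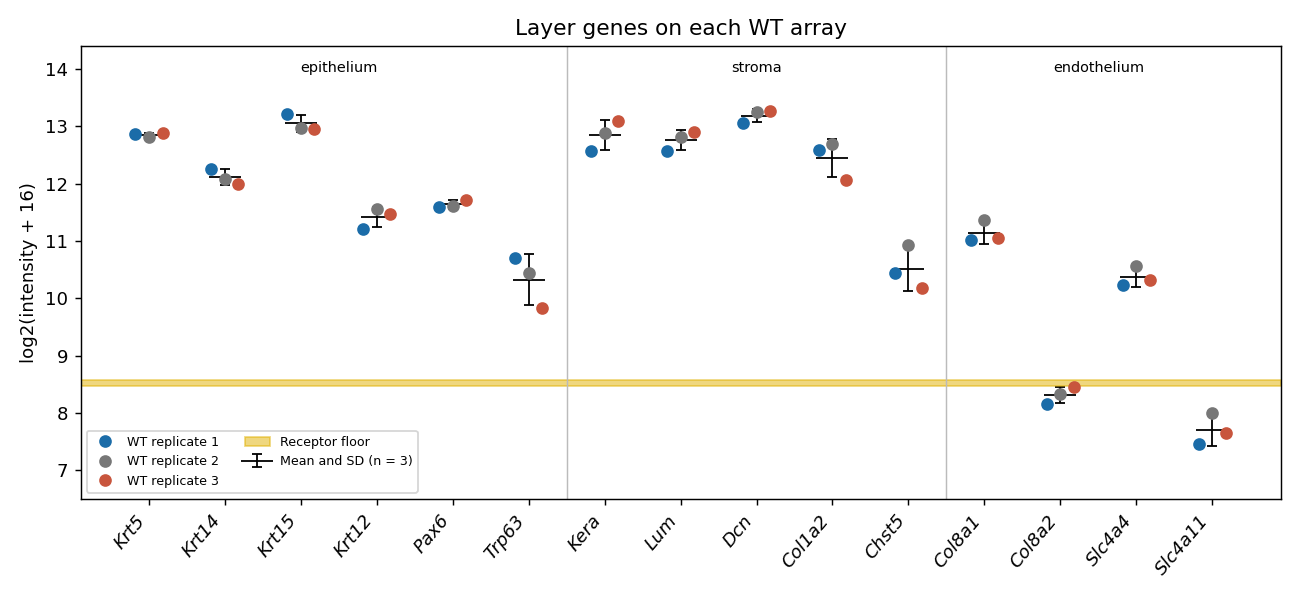
Level of 15 layer genes on each WT array (coloured points), with mean and SD (n = 3) and the receptor floor (yellow band). The keratins, stromal proteoglycans and collagens lie far above the band, while the endothelial genes Col8a2 and Slc4a11 lie below the floor of every array.

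Stromal genes were present to the same extent, with 73 of 102 (71.6%) above the floor. Kera was at 12.56, 12.88 and 13.09 and Lum, the proteoglycan lumican that spaces collagen fibrils, at 12.58, 12.80 and 12.90. Both were lowest on replicate 1 and highest on replicate 3, and Dcn followed the same order with 13.05, 13.24 and 13.26. In the RefSeq annotation (GRCm38.p6) Dcn, Lum, Kera and Epyc are adjacent genes on chromosome 10. Epyc, the cartilage proteoglycan epiphycan at the end of this row, was at 7.44, 7.08 and 8.34 and below the floor on every array. A further row of the family, Ecm2, Aspn, Omd and Ogn on chromosome 13, was also uneven. Ogn, osteoglycin, was at 11.01, 10.63 and 11.19 and Aspn, asporin, at 11.76, 10.44 and 11.51. Omd, osteomodulin, was at 8.32, 8.34 and 8.22, below the floor, and Ecm2 at 8.79, 8.38 and 9.34. Replicate 2 was the lowest for Ogn, Aspn and Ecm2. In all, 10 of 14 measured small leucine-rich proteoglycan genes were above the floor, Bgn, biglycan (11.76 ± 0.28), Fmod, fibromodulin (10.82 ± 0.13), and Nyx, nyctalopin (10.99 ± 0.16), among them.

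Of 23 fibrillar and associated collagen genes 17 were above the floor. The type I chains Col1a2 (12.59, 12.68 and 12.07) and Col1a1 (12.24, 12.33 and 11.58) were lowest on replicate 3. Other bright members were Col12a1, a fibril-associated collagen (12.27 ± 0.24), Col6a3 and Col6a1, chains of the microfibrillar type VI collagen (11.95 ± 0.29 and 11.56 ± 0.31), Col14a1 (11.88 ± 0.25) and Col3a1 (11.41 ± 0.35). Replicate 2 was highest for 17 of the 23, and the median deviation of the list from each gene's own WT mean was 0.03, 0.19 and -0.24. No member spanned 2-fold. Col25a1 (7.93 ± 0.17), Col15a1 (8.03 ± 0.15) and Col13a1 (8.39 ± 0.03) were the dimmest.

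Enzymes and matrix proteins that process collagen had the largest share of any stromal list above the floor, 22 of 25. After Sparc came Postn, periostin (12.27, 11.51 and 12.28), Fn1, fibronectin (11.82, 11.70 and 11.17), Thbs2, thrombospondin 2 (11.54 ± 0.23), Pcolce, which helps cleave procollagen (11.48 ± 0.27), and Serpinh1, the collagen chaperone (11.35 ± 0.21). Lox, the collagen cross-linking enzyme, was at 11.18, 11.27 and 10.71. Replicate 3 was the lowest for Fn1 and Lox, and the list's median deviation was 0.15, 0.11 and -0.26. Of 14 genes of keratan sulfate synthesis 8 were above the floor. Chst5, the sulfotransferase that sulfates corneal keratan sulfate, was at 10.43, 10.94 and 10.17, and B4galt1, a galactosyltransferase, at 10.17, 9.48 and 8.90, a range over 2-fold. B3gnt7, an enzyme of chain elongation, was at 8.22, 8.54 and 8.17 and was not above the floor.

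Keratocyte and neural crest genes had 16 of 26 members above the floor. Vim, the mesenchymal intermediate filament protein vimentin (12.31 ± 0.12), and the neural crest and mesenchymal factors Prrx1 (11.16 ± 0.19), Tfap2b (11.09 ± 0.14), Twist1 (10.36 ± 0.34), Twist2 (10.24 ± 0.30) and Snai2 (10.14 ± 0.22) led it. Ptgds, a prostaglandin D synthase made by keratocytes, was at 9.66, 9.67 and 9.85, and Aldh1a1, an aldehyde dehydrogenase, at 9.20, 9.62 and 9.68. Thy1 and Cd34, surface proteins of fibroblasts and of stromal progenitors, departed from this evenness. Thy1 was at 11.21, 8.36 and 9.22 and Cd34 at 10.54, 8.50 and 9.24, and Foxc2, a forkhead factor of the eye's front segment, at 9.70, 8.57 and 8.78. All of these were highest on replicate 1, and replicate 2 was the lowest.

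The share above the floor was smaller for the endothelial list than for epithelium and stroma. It was 12 of 23 (52.2%), beside 36.1% of all genes. The marker Col8a2 did not pass, with 8.16, 8.33 and 8.45, below the floor on each array. Slc4a11, the endothelial borate and proton transporter, also lay below it at 7.45, 7.99 and 7.64. Col8a1, the partner chain of Descemet's membrane, was well above at 11.02, 11.37 and 11.05, and Slc4a4, the bicarbonate cotransporter, at 10.23, 10.56 and 10.32. Alcam, an adhesion protein (11.08 ± 0.18), Aqp1, a water channel (10.20 ± 0.35), Gpc4, a glypican (10.18 ± 0.27), and Tcf4, an E-protein factor (11.29 ± 0.04), were the other bright members, several of which are also made by other cells. Col8a1, Slc4a4, Alcam and Aqp1 were highest on replicate 2. Cdh2, N-cadherin, was at 8.75, 9.44 and 9.82 and Slc2a1, a glucose transporter, at 10.19, 10.34 and 11.11, highest on replicate 3. Of the 6 marker genes of the cornea, Krt12, Krt5, Kera, Lum and Pax6 were thus above the floor on every WT array and Col8a2 was not.

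Genes of neighbouring eye tissues were above the floor in 31 of 85 cases (36.5%), close to the 36.1% of all genes, but a larger share of them differed between the arrays. Over all genes 430 spanned at least 2-fold between the WT arrays (2.16%), and 22 of these 85 (25.9%) did. Of 9239 genes above the floor on at least 1 array, 242 (2.62%) spanned 2-fold. Replicate 3 was the highest for 139 of them (1.50% of the 9239), replicate 1 for 88 (0.952%) and replicate 2 for 15. A gene could pass this filter through its highest array alone, and replicate 3 had the lowest floor.

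Retinal and photoreceptor genes showed the widest spread of any list, with a median SD of 0.51, where the median over all genes was 0.155. Otx2, a homeobox factor of photoreceptor precursors and of pigment epithelium, was at 10.07, 10.75 and 11.63. Neurod1, a proneural factor, was at 9.34, 10.46 and 11.77, and Gngt1 at 9.59, 10.15 and 11.46. Each stood above the floor on all arrays, lowest on replicate 1 and highest on replicate 3. Crx was at 8.04, 8.75 and 9.95 and Rom1, a protein of photoreceptor discs, at 8.37, 9.13 and 10.17, below the floor on replicate 1 alone. Tubb3, the neuronal tubulin, at 9.55, 8.91 and 11.10, and Nefl, the light neurofilament chain, with 8.65 on replicate 2 and 10.19 on replicate 3, had replicate 2 lowest instead.

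In all 11 of the 24 retinal genes spanned 2-fold, and all 11 were highest on replicate 3. Of those, 10 were above the floor on at least 1 array, Pde6g and Prph2 on replicate 3 alone. The remaining gene, Pde6b, was below it throughout at 7.19, 7.67 and 8.38. The number of retinal genes above the floor was 6, 10 and 14 on the respective arrays, and their summed intensity was 7783, 10473 and 20290. Of all genes 40.4%, 40.6% and 42.7% were above the floor of the respective array, which was lowest on replicate 3. Of the 24, 1 spanned 2-fold without replicate 3, 6 without replicate 1 and 11 without replicate 2. Leaving out an array can only keep or lower this count, and all 11 had their highest value on replicate 3. The lower counts therefore add no separate evidence. The opsins of cones did not take part in the same way. Opn1sw, the short-wave opsin, was at 8.46, 9.29 and 8.79, with replicate 2 highest, and Opn1mw, the middle-wave opsin, was below the floor on every array at 6.28, 6.71 and 6.80. Rcvrn, recoverin (7.10 ± 0.51), and Arr3, cone arrestin (7.14 ± 0.23), were below it as well.

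**Figure D3:**
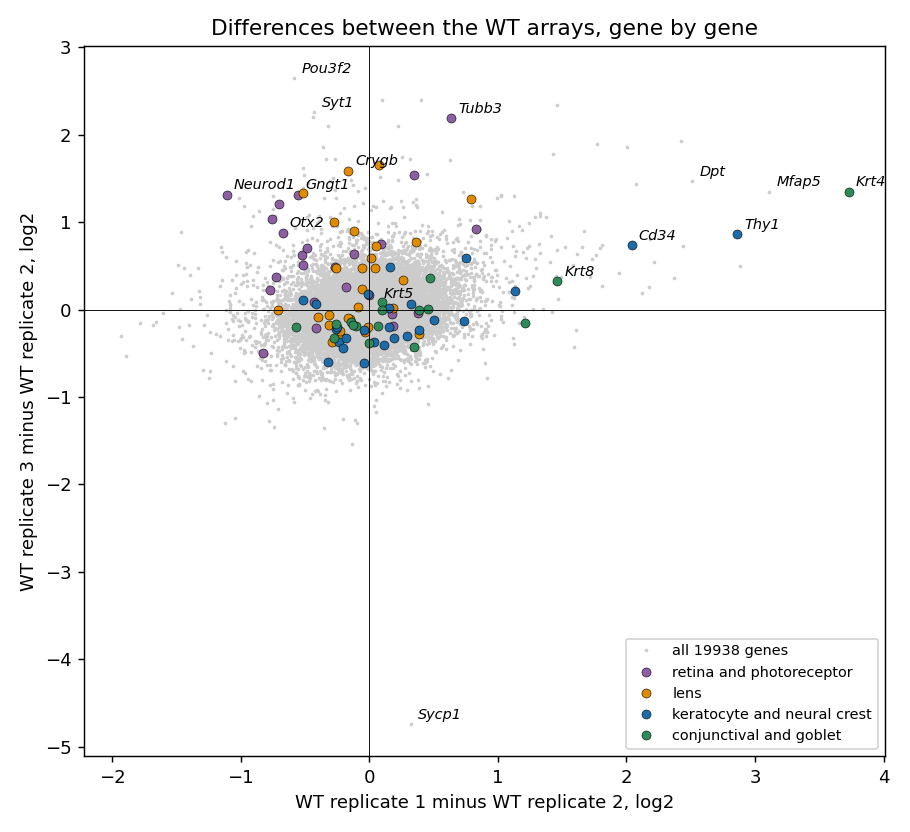
Each gene's difference between WT replicates 1 and 2 (x axis) and between WT replicates 3 and 2 (y axis), in log2, with 4 lists coloured over all 19938 genes (grey). Retinal genes such as Neurod1, Gngt1 and Tubb3 lie high on the y axis, Krt4, Mfap5, Dpt and Thy1 lie far right, and Sycp1 lies alone at the bottom.

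Lens genes were above the floor in 9 of 28 cases. Cryab, the small heat shock crystallin that many tissues make, was even at 10.90, 11.12 and 10.80. Several crystallins of lens fibres were not. Crygb was at 9.21, 9.37 and 10.96, Cryba1 at 9.15, 9.07 and 10.72, Crygd at 8.40, 8.91 and 10.25 and Cryga at 9.90, 10.01 and 10.91. Together with Crybb1 and Crygc they were the list's 6 members with a 2-fold range, and replicate 3 was highest for every one of them. Over the whole list replicate 3 was highest for 15 genes, replicate 2 for 11 and replicate 1 for 2. Bfsp1, above the floor on every array, ran the other way at 9.35, 8.97 and 8.69. The number above the floor was 11, 12 and 17 on the respective arrays, and the summed intensity 11091, 11779 and 17181. The shares of all genes above each array's floor are given with the retinal list. Other lens genes stayed below the floor, among them Dnase2b, the nuclease of fibre cells (6.57 ± 0.11), Lgsn, lengsin (7.07 ± 0.14), and Lctl (7.11 ± 0.19).

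Pigment genes had 8 of 16 members above the floor. Pmel, the fibril protein of melanosomes, was at 10.81, 11.21 and 11.68, Dct, dopachrome tautomerase, at 10.45, 10.63 and 10.99, and Mlana, a melanosomal protein, at 10.10, 10.12 and 10.39. Replicate 3 was highest for 10 of the 16, these included, and the median deviation of the list was -0.13, -0.02 and 0.11. Kit, a receptor of pigment cell precursors, ran the other way at 9.57, 9.16 and 9.34, as did Oca2, a melanosomal transporter, at 8.95, 8.63 and 8.68. Replicate 3 was also highest for Tyr, tyrosinase, at 7.39, 8.10 and 8.65, and for Ttr, the thyroxine carrier made by the pigment epithelium, at 9.43, 8.98 and 10.53. Rpe65, the isomerase of retinal pigment epithelium, stayed below the floor at 5.65, 6.34 and 6.16. Their summed intensity was 8799, 9537 and 12506.

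The keratins of the conjunctival and goblet cell list were highest on the opposite array, replicate 1, while its other genes were divided between replicates 1 and 2. Of 17 members 8 were above the floor. Replicate 1 was highest for 10, replicate 2 for 7 and replicate 3 for none. Spdef (8.73, 8.87 and 8.72) and Tff3 (8.82, 8.93 and 8.74) were highest on replicate 2. The list's median deviation on replicate 1 was 0.11, below the 0.23 of epithelial junctions. Krt19, a keratin of conjunctival and limbal epithelium, was at 12.30, 11.84 and 11.85, and Krt13, a mucosal keratin, at 11.47, 11.13 and 10.70. Krt4, the partner of Krt13, was at 10.40, 6.68 and 8.03, above the floor on replicate 1 alone. Krt8, a simple epithelial keratin, was at 11.62, 10.16 and 10.48, and Agr2, a disulfide isomerase of mucus cells, at 8.59, 7.38 and 7.22. The defining goblet mucin Muc5ac read 8.39, 8.67 and 8.34, above the floor on replicate 2 alone, and Muc5b (7.58 ± 0.05) was below it throughout.

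The widest ranges of single genes split between these arrays. On replicate 1, Mfap5, a microfibril protein of elastic tissue, read 11.92 against 8.81 and 10.16. Dpt, the dermal matrix protein dermatopontin, read 11.97, 9.46 and 10.93, Itih5, a hyaluronan-binding inhibitor chain, 10.12, 7.68 and 8.41, Pi15, a secreted CAP-family protein, 9.52, 6.64 and 7.14, and Nrk, a protein kinase, 10.24, 7.81 and 9.74. In each of these replicate 1 was highest and replicate 2 lowest, as in Thy1 and Krt4. Others were highest on replicate 3. Syt1, the calcium sensor of synaptic vesicles, was at 8.23, 8.66 and 10.92, Stmn2, a tubulin-binding protein of growing axons, at 8.86, 8.46 and 10.86, and Gng3, a neuronal G protein subunit, at 8.09, 7.99 and 10.38. Pou3f2, a neural POU factor, was at 7.19, 7.78 and 10.43, but its other probe set was even at 8.99, 8.87 and 8.96, so its range is uncertain. St6gal2, a sialyltransferase, was at 7.34, 7.66 and 9.76, and Ccdc175 at 6.95, 7.39 and 9.60.

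Sycp1, a protein of the synaptonemal complex of meiosis, had the widest range of all. It was at 9.77 and 9.45 on replicates 1 and 2 and at 4.71 on replicate 3. Its low value on replicate 3 went against the main run of genes with a wide range.

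**Figure D4:**
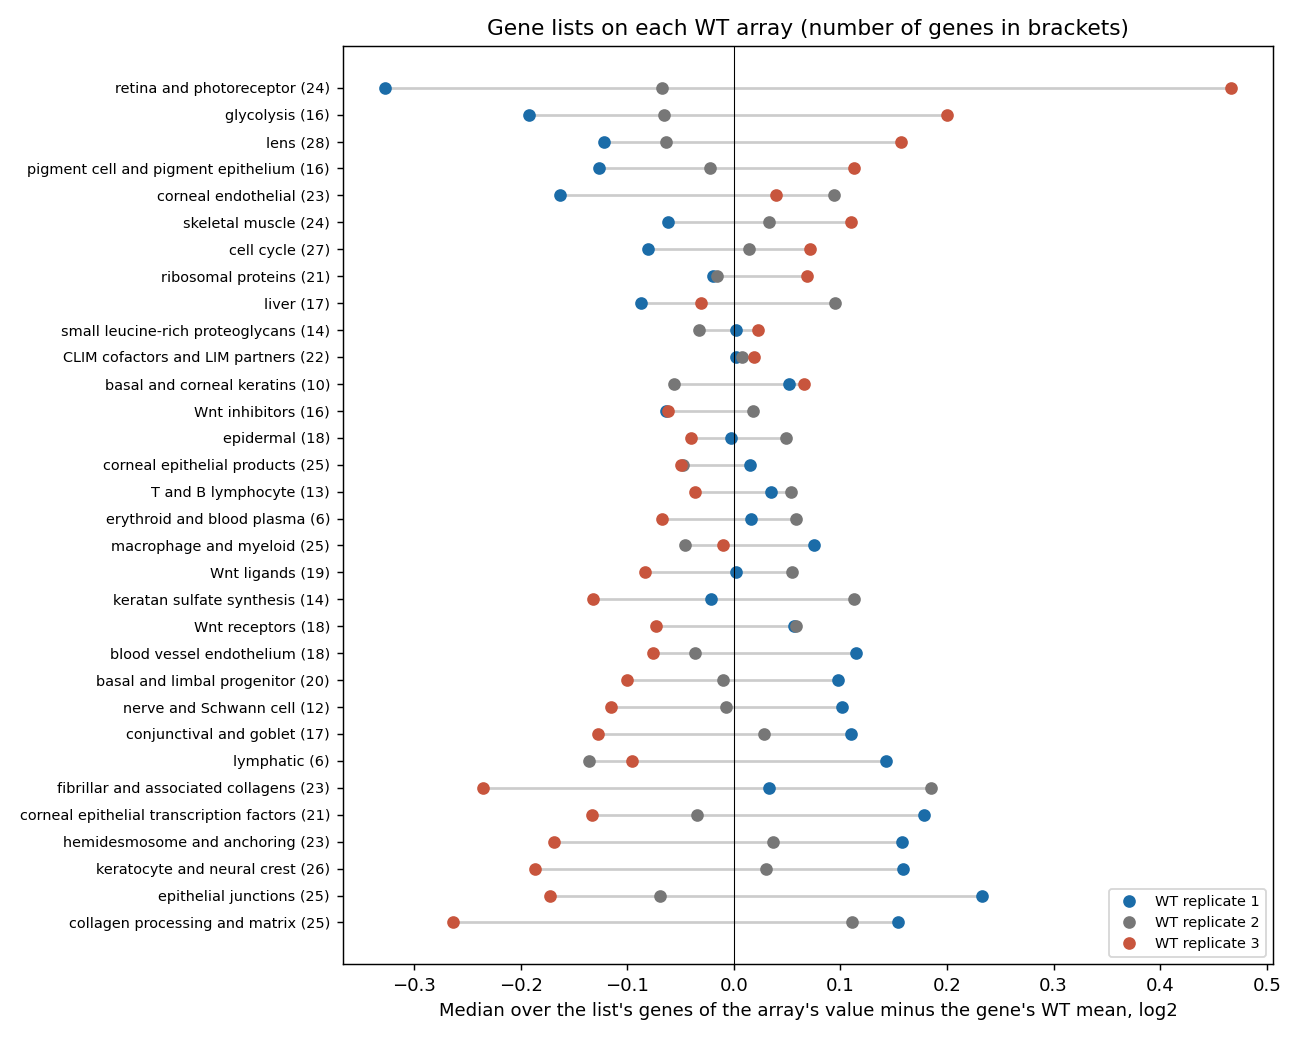
Median, over the genes of each list, of an array's value minus the gene's WT mean (log2), for each WT array, with the number of genes in brackets. The retinal list runs from -0.33 on replicate 1 to 0.47 on replicate 3, and the collagen processing list has the reverse order, from 0.15 to -0.26.

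Set side by side, several lists of epithelium and stroma were lower on the array where retinal genes were high. The median deviation on replicates 1, 2 and 3 was -0.33, -0.07 and 0.47 for the retinal list, -0.12, -0.06 and 0.16 for lens, 0.23, -0.07 and -0.17 for epithelial junctions and 0.16, 0.03 and -0.19 for keratocyte and neural crest genes. For the small leucine-rich proteoglycans it was 0.00, -0.03 and 0.02, and for all genes -0.00, 0.02 and -0.02. Whether the retinal and lens signal had a part in them was not tested.

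Genes of other tissues were mostly below the floor, with 26 of 139 (18.7%) above it, beside 36.1% of all genes. No T and B lymphocyte gene of 13 was, with the highest mean at 8.40 (Cd79b) and the lowest at 6.35 (Cd79a). Of 14 erythroid genes listed 6 were measured, the adult globins not among them, and none of the 6 was above the floor. Of 18 epidermal genes, those above the floor were Krtdap, a secreted keratinocyte peptide (10.40, 10.87 and 10.92), and Sprr1b, a cornified envelope precursor (9.02, 8.77 and 8.46). Krt1, Krt10 and Tgm1, genes of cornifying epidermis, lay near the floor at 8.52 ± 0.07, 8.58 ± 0.23 and 8.64 ± 0.39. Krt2 (7.06 ± 0.33), Flg2 (6.76 ± 0.23) and Lor, loricrin (7.36 ± 0.28), were below it.

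Of 18 genes of blood vessel endothelium 5 (27.8%) were above the floor, beside 36.1% of all genes. They were Erg, an Ets factor (10.57, 11.16 and 10.76), Emcn, endomucin (9.82, 9.74 and 10.14), Egfl7 (9.26 ± 0.30), Kdr, a VEGF receptor (9.20 ± 0.26), and Cdh5, VE-cadherin (9.02 ± 0.20). Pecam1, a general endothelial marker, was at 8.22, 7.91 and 7.95 and below the floor. Tek, the angiopoietin receptor, was at 9.19, 7.48 and 7.84, above the floor on replicate 1 alone.

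Macrophage and myeloid genes had 4 of 25 members above it. These were Cx3cr1, the fractalkine receptor (9.75 ± 0.13), Tyrobp, a signalling adaptor (9.40 ± 0.05), Mrc1, the mannose receptor (8.86 ± 0.21), and Cd68 (8.85 ± 0.11). The antigen presentation genes H2-Aa (7.28 ± 0.03), Cd74 (7.22 ± 0.07) and H2-Ab1 (6.76 ± 0.29) were the dimmest of that list. C1qc, a complement subunit, was at 8.74, 7.63 and 7.96, above the floor on replicate 1 alone.

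Nerve and Schwann cell genes had 4 of 12 above the floor. Fabp7, a fatty acid binding protein of glia, was at 11.65, 11.80 and 13.27 and highest on replicate 3, Pmp22, a myelin protein also made by fibroblasts, was at 11.22 ± 0.16, Ngfr, the low-affinity neurotrophin receptor, at 9.33 ± 0.11, and Mbp, myelin basic protein, at 8.65 ± 0.11. Of 24 skeletal muscle genes 6 were above it, Tnnt1, slow troponin T (9.42 ± 0.15), the brightest of these. Tnnc2, fast troponin C, was uneven at 9.88, 8.43 and 10.77. Of 17 liver genes 3 were above it, Ttr, Apoa2 (8.86 ± 0.14) and Apoa1 (8.70 ± 0.11), while Alb, albumin, was at 7.04 ± 0.14. In the lymphatic list 2 of 6 were above it, Pdpn, podoplanin, which epithelia and fibroblasts also make (11.11 ± 0.11), and Lyve1 (9.04 ± 0.34).

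The title of the study names the CLIM cofactors and Wnt signalling, and the WT arrays give the level of both in WT tissue. CLIM proteins, also called LIM domain binding proteins, bridge LIM-homeodomain and LMO proteins into larger complexes. Of 22 genes of this group 8 (36.4%) were above the floor, a share near the 36.1% of all genes. Ldb1 (10.42, 10.37 and 10.46) and Ldb2 (8.84, 9.17 and 9.36), the CLIM genes, both were, Ldb1 with the smaller spread. Lmo4, the LIM-only partner of epithelia, was at 9.69, 9.73 and 9.66, and Rlim, the ubiquitin ligase that targets CLIM proteins, at 10.39 ± 0.08. The single-stranded DNA-binding partners Ssbp2 (10.45 ± 0.07) and Ssbp3 (9.72 ± 0.04) were above the floor. So was Ssbp1 (11.96 ± 0.21), which despite its name is a mitochondrial protein. Of the LIM-homeodomain genes, Lmx1b, needed for the eye's front segment, was above it at 8.94, 8.91 and 8.54, and Lhx5 (6.01 ± 0.15), Isl2 (6.79 ± 0.30) and Lhx1 (6.92 ± 0.10) were the dimmest.

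Wnt proteins are secreted ligands that act through Frizzled receptors with Lrp5 or Lrp6, and secreted inhibitors such as Dkk and Sfrp proteins limit them. Of 19 ligands 3 were above the floor: Wnt5a (10.09, 10.26 and 9.77), Wnt4 (10.13, 10.06 and 9.88) and Wnt9b (9.90, 9.99 and 9.91). Of 18 receptors 10 were, led by Lrp6 (10.04 ± 0.16), Fzd7 (9.98 ± 0.07), Fzd6 (9.97 ± 0.27) and Ryk (9.78 ± 0.18). Lgr4, a receptor for R-spondins, was at 9.34 ± 0.05, while Lgr5, a stem cell marker of other epithelia, was at 7.58, 7.39 and 7.47 and below the floor. Of 16 inhibitors 7 were above it. Sfrp2 was at 11.99, 11.69 and 11.44, Dkk2, an inhibitor needed for corneal identity of the surface epithelium, at 11.35, 11.60 and 11.30, and Sfrp1 at 10.85, 10.63 and 10.66. Dkk4 (6.79 ± 0.16), Frzb (6.90 ± 0.59) and Sfrp5 (7.03 ± 0.20) were the dimmest. The ligand, receptor and inhibitor shares were 15.8%, 55.6% and 43.8%, beside 36.1% of all genes.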

How the data were processed

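Whole-cornea RNA of 3 WT samples was hybridised to Affymetrix Mouse Gene 1.0 ST arrays. The deposited values are probe set intensities on a linear scale, made by the authors with Affymetrix Expression Console 1.1 and PLIER, per the submitters' processing notes. How background was corrected, how arrays were normalized and whether an offset was added is not given in the sources used here. Precision is limited by the number of arrays.

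Levels are log2(intensity + 16), which compresses dim values, with no further normalization, since the medians of the WT arrays on this scale differed by at most 0.05. Of 35557 probe sets, 21789 had exactly 1 symbol in the platform table, 1621 had several and 12147 had none there. Each of the 19938 genes was represented by the probe set with the highest mean over all 6 arrays of the series, and 999 genes had several. For 375 of these the probe sets differed by at least 2-fold. The DN-Clim arrays were used only for this choice and for the alternatives of quantile normalization and of centring on the median. Symbols were matched to RefSeq (GRCm38.p6) for 19919 genes, and 1 list member was matched through a newer symbol. Of 654 genes in 33 lists, 602 were measured. Opt was listed in error for a proteoglycan gene and was left unmatched.

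The members and lists were chosen with earlier results of these data known. The genes named were the 6 layer markers (Krt12, Krt5, Kera, Lum, Col8a2 and Pax6), the 25 brightest, of each list up to 8 brightest and 3 dimmest members, the 15 with the widest range above the floor, list members spanning 2-fold, and sex-linked genes, with predicted loci skipped. Genes outside that rule (Slc4a11, Aldh3a1, Tkt, Klf4, Abcg2, Ecm2, B3gnt7, Ptgds, Aldh1a1, Opn1sw, Bfsp1, Muc5ac, Muc5b, Pecam1 and Alb) were named after their values were seen. Arithmetic was done in Python 3.11.15 with pandas 2.3.3 and numpy 2.4.6. The calculation was checked on simulated data whose spread between arrays was smaller than the median SD over all genes. That check therefore gives no rate of false calls for these arrays. The alternatives tried were offsets of 1 and 64, quantile normalization, centring on the median, other choices of probe set, other floors and leaving out each array.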

Additional observations from a re-analysis of the deposited data

How the results depend on the processing

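No paired analysis was possible because a single group is described and no test was made. The number of genes spanning at least 2-fold between WT arrays was 430. It was 622 with an offset of 1, fell to 224 with an offset of 64 and to 242 among genes above the floor on at least 1 array, and leaving out each replicate in turn gave 118 to 316. The retinal genes spanning 2-fold, 11 of 24, were 13 with an offset of 1 or quantile normalization, 7 with an offset of 64 and 1 to 11 without each replicate. Leaving out an array can only keep or lower such counts of genes spanning 2-fold. With the floor at the 99th percentile of receptor genes, 4279 genes in place of 7200 were above it, with 16 in place of 31 for neighbouring eye tissues and 10 in place of 26 for other tissues. Signal over background thus limits what is said of dim genes. The counts of epithelial, stromal and endothelial genes stayed within 1.5 times under every alternative run. Of 5679 comparisons of a named gene's mean, 5306 moved by less than its SD and 373 by more, 240 of them with an offset of 64. Leaving out an array cannot move a mean by more than its SD here, and those comparisons, 631 for each array left out, are among the 5306. Of 396 comparisons of a list's count, 28 moved by over 1.5 times.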

Other observations

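RNA of cell cycle and glycolysis genes was present on the WT arrays. Of 27 cell cycle genes 25 (92.6%) were above the floor, beside 36.1% of all genes. Ccnd2, a G1 cyclin, was at 12.12, 11.93 and 11.64, Pcna, the sliding clamp of DNA replication, at 11.41, 11.71 and 11.98, Top2a, a topoisomerase, at 10.42, 10.73 and 11.02 and Mki67, the Ki-67 antigen, at 10.25, 10.53 and 10.46. Replicate 3 was highest for 15 of the 27, though not for Ccnd2. Of 16 glycolysis genes 11 (68.8%) were above the floor. Hk1, hexokinase, was at 11.85, 12.06 and 12.27, Pgk1, phosphoglycerate kinase, at 11.43, 11.58 and 11.95 and Ldha, a lactate dehydrogenase chain, at 10.85, 10.96 and 11.41. Replicate 3 was highest for 12 of the 16, and the summed intensity of the list was 19867, 21329 and 25772. The retinal list was highest on the same array, and its part in these values was not tested.

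Signal was also present outside the named genes. Of the probe sets that the platform table does not name, 3187 were above the floor on all WT arrays, as were 783 of those with several symbols. For 274 genes the probe sets disagreed on whether the gene was above the floor. The 4 probe sets of Gas5 had means of 13.17, 11.40, 9.74 and 8.49, and each of them was lowest on replicate 1.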
